A study of Mus musculus with 14 samples.

Results

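The genes described here are 39 genes of the fat cell, or adipocyte, followed across 14 mouse melanomas whose RNA was sequenced during treatment with a BRAF inhibitor. The 39 were taken from a named list of adipocyte genes and matched by symbol without regard to case to the 18481 genes of the deposited expression table. This list and the other gene lists below were chosen with earlier results of these data known. Their comparisons with all genes are therefore descriptive. The table held 34 of them, and Lep, Cidea, Aqp7, Adig and Ucp1 were not analysed here. The listed genes code for hormones, lipid droplet coat proteins, lipases and their receptors, uptake proteins, enzymes of triglyceride synthesis and transcriptional regulators, plus a mixed remainder.

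All tumours grew from the mouse melanoma cell line SMM102 as subcutaneous grafts. The hosts were female C57BL/6J mice, 6 to 8 weeks of age, and dosing was started when grafts measured between 150 and 300 mm3. PLX4032, known as vemurafenib, inhibits the mutant BRAF kinase and was given intraperitoneally 5 days a week in doses of 50 mg/kg. Of the PLX4032 tumours, 2 were taken at day 3, 2 at day 6, 2 at day 18 and 4 at day 27, and of the control tumours 2 at day 3 and 2 at day 6. The controls received vehicle according to the design text and are named untreated in the labels. No control was collected at day 18 or day 27, so treatment and time cannot be told apart at those days. The 4 day 27 tumours are the left and right grafts of only 2 mice. They were tested as 4 samples, so p-values of comparisons with day 27 are too small. The spread was shared over all tumours, so the day 27 tumours also enter every other p-value, which may be too small as well. Each mouse carried a pair of tumours and 1 animal number occurs in the titles of both a day 6 control and a day 3 PLX4032 tumour, so other tumours may also share a mouse. All tumours came from 1 cell line, and whole tumours were frozen for RNA, so each value is a sum over melanoma cells and host cells. In such bulk samples fewer cells of a type and less RNA per cell cannot be told apart.

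White fat cells store triglyceride in a large lipid droplet coated by perilipins and Cidec. Lipoprotein lipase, Cd36 and Fabp4 bring fatty acids in, a pathway that ends with Dgat1 and Dgat2 joins them to glycerol, and Pnpla2 and Lipe release them again when adrenergic receptors such as Adrb3 are stimulated. Pparg and Cebpa are the transcription factors that drive and maintain the fat cell state, and adiponectin (Adipoq), adipsin (Cfd) and resistin (Retn) are secreted by it. Subcutaneous fat lies under mouse skin, and the mammary fat pads of female mice lie within it.

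Values below are on the scale of the deposited table, whose name calls them TPM, a measure already divided by transcript length. Columns summed to different totals, between 879385 and 1084400, so the values were treated as a length-scaled expression signal. Read depth was not given in the sources used here. Within groups the tumours correlated across genes at r = 0.962 to 0.990, and no 2 columns were identical. One abundant small RNA gene, Mir6236, stood at 63611 in day 6 control tumour 1, and at 4296 to 29977 in the other tumours. The melanocyte genes were low in all tumours, with Mitf at 1.56 to 10.4 and Pmel at 0.338 to 1.05, whereas the mesenchymal gene Vim stood at 2769 to 6795. Changes are differences of mean log2(value + 1) with their standard error (SE) from limma, fitted over the 15841 genes with values of 1 or more in 2 or more tumours. A gene is said to have risen or fallen where its Benjamini-Hochberg adjusted p over all 15841 genes was under 0.05. In the values of single tumours, the controls are given as the day 3 pair followed by the day 6 pair, and each group in the order of its tumour numbers.

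Promoters are shown for 4 members, chosen because Plin1, Cidec and Adipoq stood far above all other tumours at day 18 and Pparg codes for the regulator of the fat cell state. Each line gives the 250 bases before a transcription start from RefSeq (GRCm38.p6), read 5′ to 3′ on the gene's strand, with matches to TTGCNNAA, a core of sites for C/EBP factors, in capitals. Plin1 is read from chr7:79732777-79733026 (minus strand), Cidec from chr6:113434765-113435014 (minus strand), Pparg from chr6:115421816-115422065 (plus strand) and Adipoq from chr16:23146286-23146535 (plus strand).
Plin1: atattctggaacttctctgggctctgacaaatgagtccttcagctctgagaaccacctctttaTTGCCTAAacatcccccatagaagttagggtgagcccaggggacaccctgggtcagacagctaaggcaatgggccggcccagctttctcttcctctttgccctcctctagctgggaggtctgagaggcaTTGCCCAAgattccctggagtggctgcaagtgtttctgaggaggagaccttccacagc
Cidec: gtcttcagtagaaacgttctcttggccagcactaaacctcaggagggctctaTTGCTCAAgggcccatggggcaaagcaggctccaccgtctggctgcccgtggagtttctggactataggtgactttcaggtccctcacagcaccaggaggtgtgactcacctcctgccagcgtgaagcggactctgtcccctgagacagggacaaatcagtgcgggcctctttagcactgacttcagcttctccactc
Pparg: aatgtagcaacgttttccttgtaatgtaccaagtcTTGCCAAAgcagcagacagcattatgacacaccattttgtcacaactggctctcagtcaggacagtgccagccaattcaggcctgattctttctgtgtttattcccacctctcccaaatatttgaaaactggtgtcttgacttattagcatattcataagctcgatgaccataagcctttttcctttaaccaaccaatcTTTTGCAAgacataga
Adipoq: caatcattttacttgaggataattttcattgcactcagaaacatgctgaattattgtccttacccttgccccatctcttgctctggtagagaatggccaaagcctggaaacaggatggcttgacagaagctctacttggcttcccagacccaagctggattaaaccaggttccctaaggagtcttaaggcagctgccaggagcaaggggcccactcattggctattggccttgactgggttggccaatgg
The RefSeq promoter table held 28 of the 39 members. In the 250 bases before a start, TTGCNNAA occurred on either strand in 6 of the 28 (Cidec, Lep, Mest, Plin1, Pparg and Rbp4), and in 10.8% of the 27025 genes of the table. The table holds 1 start each for Plin1 and Adipoq, 2 for Cidec and 3 for Pparg, and a gene was counted if any of its starts had a match. For Cidec and Pparg the start with a match is shown, and the other Cidec start (chr6:113435761-113436010) and both other Pparg starts had none. Plin1 held matches that start 187 and 58 bases before its start, Cidec held 1 that starts 198 bases before the start shown, and Pparg held matches 215 and 16 bases before the start shown, the nearer one on the opposite strand. TATAAA occurred in 4 of the 28 members (Cebpa, Cyp2e1, Pparg and Rbp4), none overlapping a TTGCNNAA match, and in 14.3% of all genes. The spaced direct repeat DR1 bound by PPAR and RXR occurred on either strand in 0 of the 28 members and in 0.4% of all genes. Among the members not shown, Cfd, Retn, Pck1, Plin4, Thrsp and Cyp2e1 also stood above all other tumours at day 18 and had no TTGCNNAA match. Rbp4 did so with a match. The 4 promoters shown therefore do not stand for the members that rose. These are matches of letters in a short window, and binding was not measured.

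The fat cell genes stood highest in the day 18 tumours. Against the 4 controls, 30 of the 39 members rose at day 18 and 0 fell, 3 of the 33 tested did not pass, and Acvr1c was not tested because it never reached 1. Over all genes tested, 5.42% rose and 2.50% fell at day 18. The members were chosen with earlier results of these data known, so the contrast with all genes is a description. Of the 33 tested, 6 (Rbp4, Plin1, Pck1, Pcx, Thrsp and Cyp2e1) passed the minimum only through the day 18 tumours and so had to differ; of the 27 that passed it without those tumours, 24 rose. The median log2 change was 3.54 over the 33 members tested and 3.30 over those 27, beside 0.07 over all genes. Both day 18 tumours stood above each of the other 12 tumours for 22 of those 27 members, beside 4.79% of the genes that passed the minimum without the day 18 tumours; with the 6 added the counts were 28 of 33 members and 5.16% of all genes tested. Leaving out 1 tumour changed the number of rises over all genes, 858 with all tumours, to 320 (without day 18 tumour 2) or 1549 (without day 6 control tumour 1), whereas 27 to 31 members rose.

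Summed over the 34 members, the level was 187 to 316 in the controls, 542 and 560 at day 3, 256 and 278 at day 6, 3979 and 4364 at day 18 and 183 to 222 at day 27. At day 18 this was 0.368% and 0.437% of the column total, against 0.0191% to 0.0292% in the controls. Cfd, Car3 and Fabp4 made up most of the day 18 sum, which without them was 1241 and 1649, against 173 to 257 in the controls. The day 3 sums lay above all 4 controls, and the day 6 and day 27 sums overlapped them.

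**Figure D1:**
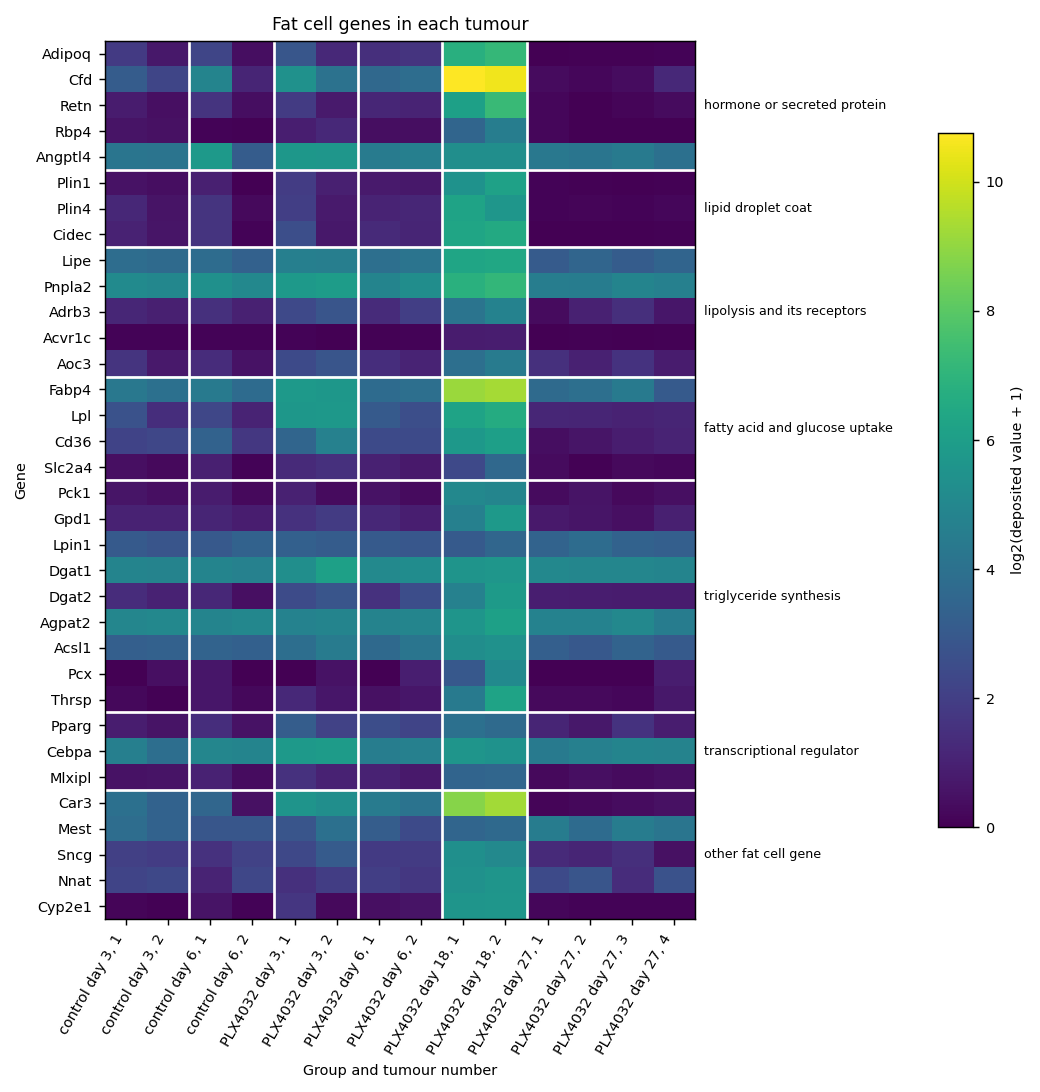
Heat map of the 34 fat cell genes in the table (rows, grouped by role) in the 14 tumours (columns, by group and tumour number), coloured by log2(deposited value + 1). The 2 day 18 columns are the brightest, and the summed level there was 3979 and 4364, against 187 to 316 in the controls.

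Of the 6 hormones and secreted proteins on the list, 5 were tested and 4 rose at day 18. Of the 4, Rbp4 reached the minimum only through the day 18 tumours and so had to differ. Adiponectin (Adipoq, chr16:23146536-23157968), a hormone made almost solely by fat cells, stood at 111 and 142 at day 18, against 2.51, 0.622, 3.70 and 0.306 in the controls. Its levels were 6.40 and 1.33 at day 3, 1.76 and 2.06 at day 6 and 0, 0.0429, 0.0445 and 0.0827 at day 27, the first of which is a listed 0. The day 18 tumours lay far above the rest and the change was 5.70 (SE 0.52, adjusted p = 0.000119). Adipsin (Cfd, chr10:79890853-79892655), a serine protease of the complement system, reached 1737 and 1475 at day 18, against 7.88, 3.76, 27.8 and 1.18 in the controls, the widest change of any member at 7.80 (SE 0.80, adjusted p = 0.000257). It stood at 42.5 and 15.5 at day 3, 11.6 and 13.5 at day 6 and 0.261, 0.139, 0.269 and 1.38 at day 27, and the controls alone spread over a wide range that the day 3 and day 6 tumours overlapped. Resistin (Retn), a secreted protein of mouse white fat, stood at 69.0 and 155 at day 18, against 0.788, 0.348, 2.08 and 0.317 in the controls. It was at 2.67 and 0.705 at day 3, 1.22 and 1.07 at day 6 and 0.142, 0, 0.0990 and 0.227 at day 27, and its day 18 change was 5.89 (SE 0.40, adjusted p = 1.57e-05). The second day 18 tumour held more than 2 times the Retn of the first, a ratio of 2.25.

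Retinol binding protein (Rbp4), which carries vitamin A in blood, was at 10.5 and 22.5 at day 18, against 0.495, 0.407, 0.0676 and 0.0571 in the controls, with a change of 3.73 (SE 0.23, adjusted p = 7.68e-06). Elsewhere it was at 0.864 and 1.35 at day 3, 0.322 and 0.327 at day 6 and 0.129, 0, 0 and 0 at day 27, where 3 tumours were listed at 0. Angptl4, a secreted inhibitor of lipoprotein lipase that many cell types make, followed another course. It stood at 38.4 and 39.01 at day 18, against 17.2, 16.6, 54.2 and 7.67 in the controls, and day 6 control tumour 1 was above both day 18 tumours. Its change of 1.01 at day 18 (SE 0.51, adjusted p = 0.222) did not pass the test.

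All 3 tested lipid droplet coat genes rose at day 18, but Plin1 reached the minimum only through the day 18 tumours and so had to differ. Perilipin 1 (Plin1, chr7:79721164-79732904), which shields the droplet from lipases until it is phosphorylated, stood at 43.2 and 71.2 at day 18, against 0.441, 0.323, 0.923 and 0.0160 in the controls. It was at 2.81 and 0.949 at day 3, 0.722 and 0.603 at day 6 and 0.0725, 0.0547, 0 and 0.0348 at day 27. The day 18 change was 5.35 (SE 0.30, adjusted p = 5.76e-06), and both tumours cleared all others by more than 10 times. Perilipin 4 (Plin4), a coat protein of small droplets, stood at 74.5 and 49.8 at day 18, against 1.27, 0.475, 2.06 and 0.196 in the controls, a change of 5.05 (SE 0.39, adjusted p = 3.96e-05). Its levels were 2.97 and 0.724 at day 3, 1.11 and 1.22 at day 6 and 0.0684, 0.110, 0.0704 and 0.138 at day 27, so the day 27 tumours lay below every control. Cidec, which fuses droplets into larger ones, stood at 78.8 and 93.1 at day 18, against 1.06, 0.507, 2.03 and 0.0835 in the controls, a change of 5.60 (SE 0.47, adjusted p = 6.94e-05). At day 3 it was at 5.08 and 0.619, at day 6 at 1.40 and 1.16 and at day 27 at 0, 0, 0 and 0.0297, where 3 tumours were listed at 0. Both genes kept the day 18 tumours apart from all the others.

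**Figure D2:**
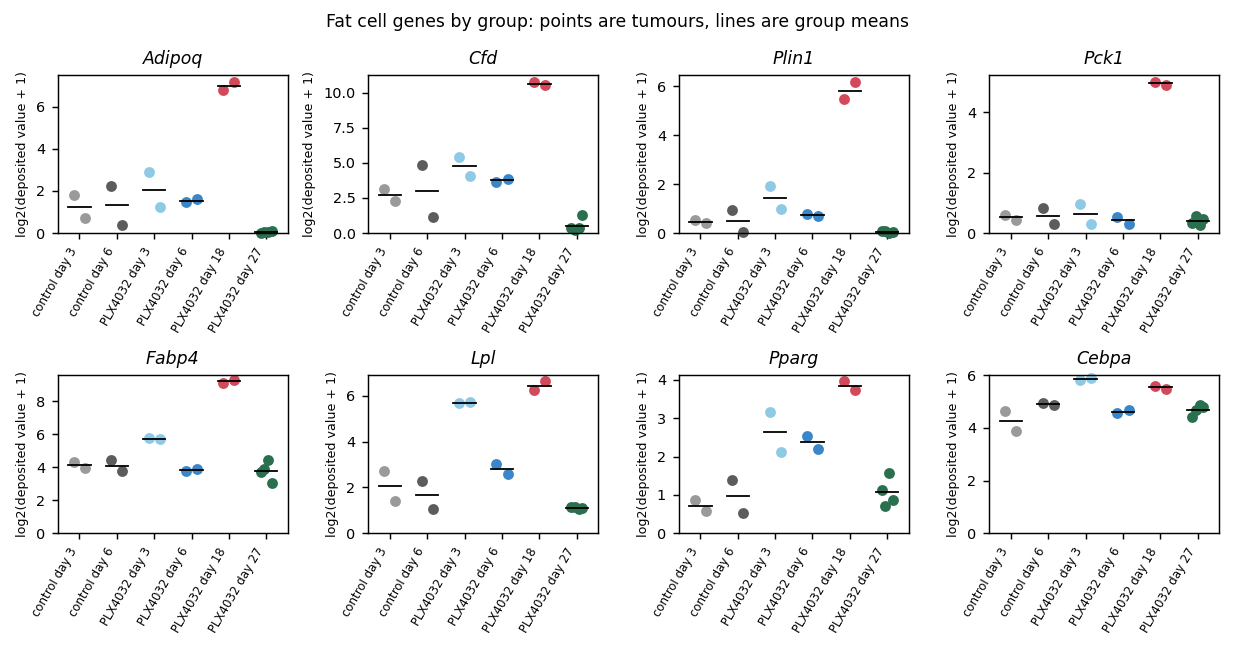
Levels of 8 fat cell genes as log2(deposited value + 1) by group, each point a tumour and each line a group mean. Adipoq, Cfd, Plin1, Pck1 and Fabp4 were highest at day 18, whereas the 2 Lpl values at day 3 (50.7 and 51.7) approached those at day 18 and Cebpa was higher at day 3 than at day 18.

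The 4 tested genes of lipolysis and its receptors all rose at day 18, from levels in the controls that were already well above 0 for both lipases. Hormone-sensitive lipase (Lipe) stood at 78.6 and 84.2 at day 18, against 13.3, 12.3, 12.8 and 9.05 in the controls, and at 23.7 and 23.0 at day 3, 14.2 and 16.7 at day 6 and 7.64, 10.5, 7.72 and 10.01 at day 27. Its change was 2.69 (SE 0.16, adjusted p = 5.9e-06). Pnpla2, the lipase that starts triglyceride breakdown in fat cells and many other cells, stood at 112 and 138 at day 18, against 34.1, 30.5, 41.7 and 31.8 in the controls. It was at 55.6 and 61.1 at day 3, 28.2 and 37.6 at day 6 and 22.6, 21.9, 27.8 and 24.4 at day 27, and the day 18 change was 1.83 (SE 0.15, adjusted p = 6.94e-05). For both lipases the day 3 tumours lay between the controls and the day 18 tumours without touching either.

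The beta-3 adrenergic receptor (Adrb3), the receptor through which noradrenaline starts lipolysis in rodent fat, stood at 16.6 and 26.5 at day 18, against 1.25, 0.945, 1.78 and 1.01 in the controls. It was at 4.22 and 6.25 at day 3, 1.54 and 3.01 at day 6 and 0.262, 0.987, 1.73 and 0.577 at day 27, and its day 18 change was 3.31 (SE 0.32, adjusted p = 0.000194). Aoc3, an amine oxidase on the surface of fat cells, smooth muscle and vessels, stood at 14.3 and 21.1 at day 18, against 2.08, 0.689, 1.57 and 0.459 in the controls, a change of 3.13 (SE 0.33, adjusted p = 0.000314). It was at 4.27 and 6.07 at day 3, 1.63 and 1.10 at day 6 and 1.79, 0.997, 1.97 and 0.751 at day 27, and only at day 3 and day 18 did both tumours exceed every control. Acvr1c, an activin receptor of fat cells, stayed below 1 in all tumours, at 0.778 and 0.818 at day 18, against 0.0670 to 0.0855 in the controls. Its day 18 values still exceeded those of the other 12 tumours.

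All 4 uptake genes rose at day 18, and all 4 at day 3. Fabp4 (chr3:10204342-10208616), a fatty acid carrier of fat cells that macrophages and vessel lining also make, stood at 559 and 630.0 at day 18, against 18.9, 14.8, 20.9 and 12.7 in the controls. It was at 53.9 and 51.1 at day 3, 12.5 and 14.1 at day 6 and 12.05, 14.2, 20.6 and 7.21 at day 27, with a day 18 change of 5.08 (SE 0.31, adjusted p = 6.96e-06). The day 6 and day 27 tumours overlapped the control range. Lipoprotein lipase (Lpl, chr8:68880555-68906932), which frees fatty acids from blood lipoproteins and is also made by muscle and macrophages, stood at 74.3 and 98.5 at day 18, against 5.54, 1.69, 3.88 and 1.09 in the controls, a change of 4.56 (SE 0.36, adjusted p = 4.88e-05). It was at 50.7 and 51.7 at day 3, 7.15 and 5.04 at day 6 and 1.20, 1.20, 1.06 and 1.16 at day 27, so the day 3 tumours stood far nearer to the day 18 tumours than to the controls. Cd36, a fatty acid transporter of fat, muscle, vessels and macrophages, stood at 52.3 and 66.7 at day 18, against 3.47, 3.84, 9.39 and 2.34 in the controls, a change of 3.52 (SE 0.42, adjusted p = 0.000789). It was at 10.5 and 25.6 at day 3, 4.42 and 4.31 at day 6 and 0.325, 0.512, 0.817 and 1.10 at day 27, where all tumours lay below the lowest control. Slc2a4, the insulin-regulated glucose transporter of fat and muscle, stood at 4.26 and 11.4 at day 18, against 0.356, 0.201, 0.936 and 0.0901 in the controls, a change of 2.57 (SE 0.31, adjusted p = 0.000826). It was at 1.42 and 1.83 at day 3, 0.971 and 0.655 at day 6 and 0.240, 0.0404, 0.215 and 0.154 at day 27, and its day 18 pair differed by 2.67 times.

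Of the 9 genes of triglyceride synthesis and its carbon supply, 8 rose at day 18. Of the 8, Pck1, Pcx and Thrsp reached the minimum only through the day 18 tumours and so had to differ. Pck1, whose product makes the glycerol backbone in fat cells and glucose in liver, stood at 31.3 and 28.8 at day 18, against 0.516, 0.346, 0.780 and 0.222 in the controls, a change of 4.42 (SE 0.21, adjusted p = 3.63e-06). It was at 0.967 and 0.234 at day 3, 0.449 and 0.234 at day 6 and 0.250, 0.477, 0.198 and 0.375 at day 27, which overlapped the controls throughout. Glycerol phosphate dehydrogenase (Gpd1) stood at 24.9 and 55.2 at day 18, against 1.02, 1.02, 1.16 and 0.829 in the controls, a change of 4.25 (SE 0.27, adjusted p = 8.97e-06). It was at 1.87 and 2.62 at day 3, 1.32 and 0.8804 at day 6 and 0.659, 0.524, 0.344 and 0.920 at day 27. Dgat2, an enzyme of the last step of triglyceride synthesis, stood at 25.8 and 56.7 at day 18, against 1.61, 1.05, 1.32 and 0.345 in the controls, a change of 4.28 (SE 0.35, adjusted p = 5.57e-05). It was at 4.46 and 6.12 at day 3, 1.87 and 4.78 at day 6 and 0.845, 0.797, 0.757 and 0.745 at day 27, and all day 3 and day 6 values lay above the controls. Pyruvate carboxylase (Pcx) and Thrsp, a lipogenic nuclear protein, differed most between the day 18 tumours. Pcx was at 6.74 and 33.5 at day 18, against 0, 0.373, 0.556 and 1.67e-07 in the controls, and at 0 and 0.459 at day 3, 0 and 0.856 at day 6 and 0, 0, 4.57e-08 and 0.794 at day 27. Thrsp was at 20.1 and 74.2 at day 18, against 0.168, 0.0394, 0.566 and 0.163 in the controls, and at 1.33 and 0.584 at day 3, 0.407 and 0.576 at day 6 and 0.206, 0.201, 0.138 and 0.629 at day 27. Their changes were 3.76 (SE 0.52, adjusted p = 0.00204) for Pcx and 5.03 (SE 0.40, adjusted p = 4.88e-05) for Thrsp.

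The remaining synthesis genes, which most cells express, changed less. Acsl1, which activates long-chain fatty acids, stood at 38.0 and 42.7 at day 18, against 8.50, 9.12, 9.71 and 8.81 in the controls, a change of 2.04 (SE 0.19, adjusted p = 0.000123). It was at 13.96 and 21.0 at day 3, 11.9 and 17.1 at day 6 and 8.48, 6.87, 9.75 and 7.35 at day 27. Agpat2, which acylates lysophosphatidic acid, stood at 48.6 and 69.3 at day 18, against 29.8, 31.3, 27.7 and 30.6 in the controls, a change of 0.94 (SE 0.15, adjusted p = 0.00585). It was at 26.4 and 27.6 at day 3, 26.8 and 28.5 at day 6 and 26.0, 26.2, 32.0 and 21.9 at day 27. Without day 18 tumour 2 its change was 0.69 and did not pass (adjusted p = 0.0661). Dgat1, the other enzyme of the last step, stood at 47.2 and 49.4 at day 18, against 27.6, 26.9, 28.3 and 25.7 in the controls, a change of 0.81 (SE 0.17, adjusted p = 0.0204). It was at 38.5 and 68.9 at day 3, 32.8 and 36.9 at day 6 and 31.2, 29.9, 30.1 and 28.1 at day 27, and the second day 3 tumour was the highest of all 14. Lpin1, a phosphatidate phosphatase, did not pass, at 7.27 and 10.6 at day 18, against 7.37, 6.23, 6.98 and 9.36 in the controls (0.22, SE 0.19, adjusted p = 0.462).

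All 3 regulators rose at day 18. Pparg (chr6:115360879-115490404) stood at 14.5 and 12.3 at day 18, against 0.831, 0.489, 1.64 and 0.454 in the controls, a change of 3.00 (SE 0.33, adjusted p = 0.000506). It was at 7.91 and 3.36 at day 3, 4.83 and 3.60 at day 6 and 1.18, 0.635, 1.96 and 0.822 at day 27, so each treated group up to day 18 lay above every control, and the day 27 tumours overlapped them. Mlxipl, which codes for the glucose-responsive factor ChREBP, stood at 10.1 and 10.7 at day 18, against 0.436, 0.503, 1.05 and 0.285 in the controls, a change of 2.88 (SE 0.20, adjusted p = 1.72e-05). It was at 1.87 and 1.03 at day 3, 1.04 and 0.683 at day 6 and 0.208, 0.369, 0.242 and 0.352 at day 27. Cebpa, which is also a factor of myeloid cells, stood at 47.9 and 43.9 at day 18, against 24.2, 13.8, 29.7 and 27.97 in the controls, a change of 0.96 (SE 0.19, adjusted p = 0.0133). It was at 55.6 and 59.4 at day 3, 22.6 and 24.6 at day 6 and 20.1, 24.7, 28.1 and 27.0 at day 27, and the day 3 pair exceeded the day 18 pair. The day 18 call of Cebpa was lost without either day 18 tumour (change 0.90 without the first and 1.03 without the second). So was that of Dgat1 (0.84 and 0.78). The Dgat1 call was also lost without day 3 control tumour 2 (0.80) or day 6 control tumour 2 (0.78).

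Among the other fat cell genes, 4 of the 5 tested rose at day 18. Of the 4, Cyp2e1 reached the minimum only through the day 18 tumours and so had to differ. Carbonic anhydrase 3 (Car3, chr3:14863538-14872381), an abundant protein of fat and slow muscle, stood at 443 and 609.7 at day 18, against 14.5, 9.49, 10.8 and 0.381 in the controls, a change of 6.18 (SE 0.61, adjusted p = 0.000208). It was at 46.9 and 38.7 at day 3, 21.4 and 16.2 at day 6 and 0.0960, 0.174, 0.296 and 0.397 at day 27, and day 6 control tumour 2 lay far under the other controls. Cyp2e1, a cytochrome P450 of liver and fat, stood at 47.7 and 49.1 at day 18, against 0.123, 0.0318, 0.486 and 0.0801 in the controls, a change of 5.40 (SE 0.30, adjusted p = 5.76e-06). It was at 2.22 and 0.212 at day 3, 0.359 and 0.477 at day 6 and 0.152, 0.0681, 0.0748 and 0.0662 at day 27, with the day 18 pair nearly equal. Synuclein gamma (Sncg), found in nerve and fat, stood at 39.8 and 32.4 at day 18, against 3.17, 2.80, 1.89 and 3.32 in the controls, a change of 3.30 (SE 0.29, adjusted p = 8.23e-05). It was at 4.01 and 7.62 at day 3, 2.52 and 2.63 at day 6 and 1.44, 1.14, 1.71 and 0.415 at day 27. Neuronatin (Nnat), an imprinted gene of brain and fat, stood at 42.3 and 47.8 at day 18, against 3.67, 3.99, 1.13 and 3.96 in the controls, a change of 3.54 (SE 0.41, adjusted p = 0.000596). It was at 1.82 and 2.92 at day 3, 3.03 and 2.31 at day 6 and 4.41, 6.13, 1.61 and 5.54 at day 27. Both genes set the day 18 tumours apart from all the others. Mest, an imprinted gene linked to fat mass in mice, did not pass at day 18, at 10.5 and 11.8, against 13.5, 9.36, 6.43 and 6.33 in the controls (0.36, SE 0.33, adjusted p = 0.495).

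**Figure D3:**
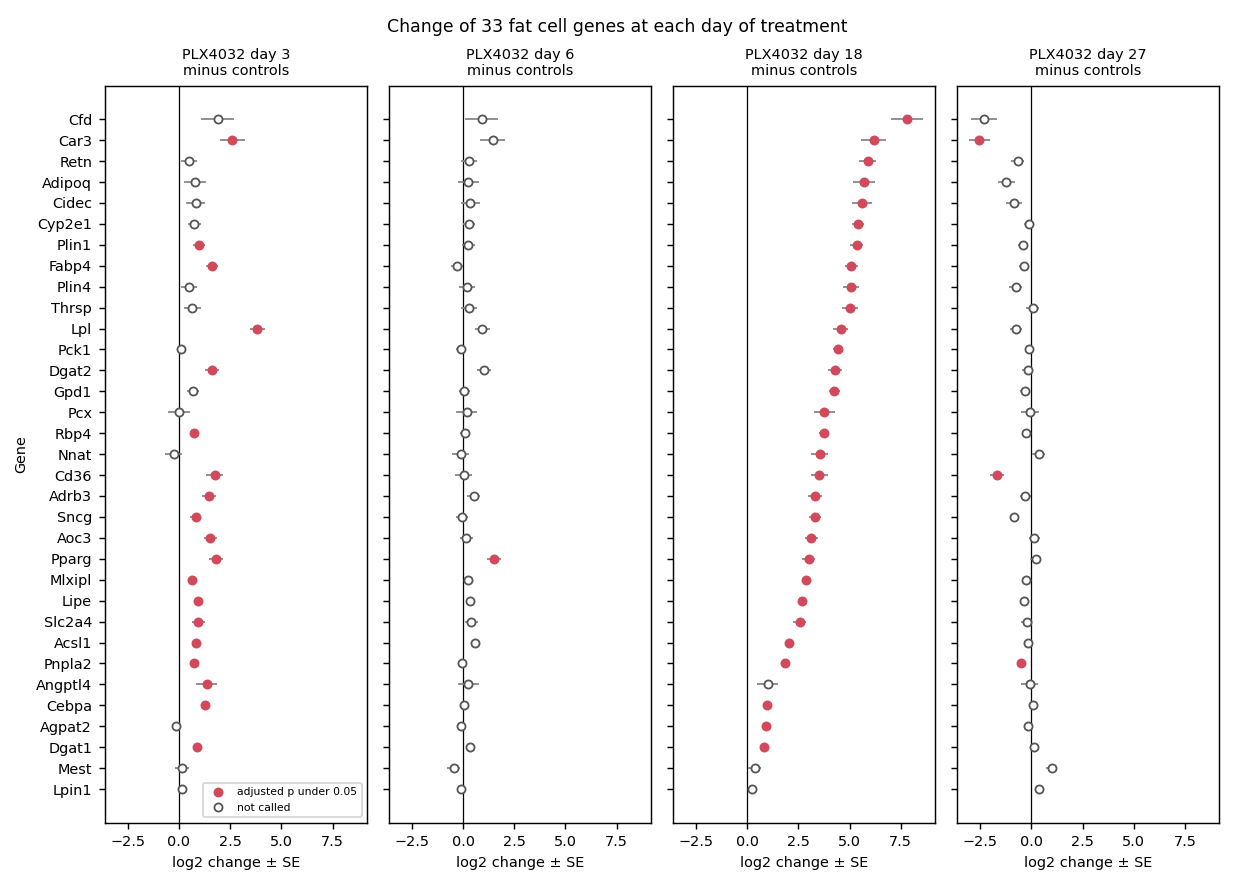
Log2 change of the 33 tested fat cell genes against the 4 controls at days 3, 6, 18 and 27, with SE bars, filled where the limma adjusted p was under 0.05. At day 18 30 genes rose, at day 3 19 rose, at day 6 only Pparg rose, and at day 27 Car3, Cd36 and Pnpla2 fell.

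At day 3, 19 members rose and 0 fell, in a comparison where 24.9% of all genes rose and 20.8% fell. Both day 3 tumours stood above every control for 19 members, beside 31.2% of all genes tested. The median change was 0.81 over the 33 members tested, beside 0.02 over all genes. Of the 27 members that passed the minimum without the day 18 tumours, 17 rose at day 3. Lpl had the largest change, 3.83 (SE 0.36, adjusted p = 4.31e-05), followed by Car3 at 2.60 (SE 0.61, adjusted p = 0.00562) and Pparg at 1.79 (SE 0.33, adjusted p = 0.00164). By role, all 4 tested genes of lipolysis, all 4 of uptake and all 3 regulators rose. So did 1 of 3 tested droplet coat genes (Plin1) and 2 of 5 hormones (Rbp4 and Angptl4). The others were 3 of 9 synthesis genes (Acsl1, Dgat1 and Dgat2) and 2 of 5 other fat cell genes (Car3 and Sncg). Plin1 and Rbp4 reached the minimum only through the day 18 tumours. Angptl4 stood at 51.2 and 48.7 at day 3, below the 54.2 of day 6 control tumour 1 (limma adjusted p = 0.0498). When 1 tumour was left out, 9 of the 19 calls were lost in at least 1 fit, those of Acsl1, Adrb3, Angptl4, Cd36, Mlxipl, Plin1, Rbp4, Slc2a4 and Sncg, so that lipolysis, uptake and regulators were not complete in each of these fits. Without day 3 PLX4032 tumour 2 the adjusted p was 0.0553 for Adrb3, 0.106 for Cd36 and 0.163 for Slc2a4, and without day 3 PLX4032 tumour 1 it was 0.226 for Mlxipl. Several genes with large day 18 changes did not pass at day 3, among them Adipoq with 0.77 (SE 0.52, adjusted p = 0.252) and Cfd with 1.90 (SE 0.80, adjusted p = 0.0744). Retn changed by 0.50 (SE 0.40, adjusted p = 0.335) and Pck1 by 0.10 (SE 0.21, adjusted p = 0.717). The 18 members that rose at day 3 and also at day 18 include all tested members of the lipolysis, uptake and regulator roles; these comparisons share their controls.

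Over all genes tested, 24.9% rose and 20.8% fell at day 3. Macrophage markers also rose at day 3, all 10 of 10, with a summed level of 8047 and 13010, against 760 to 2255 in the controls. Endothelial markers rose for 9 of 10, summed to 195 and 297, against 82.0 to 169.6 in the controls. Fibroblast and adipose progenitor markers rose for 8 of 10 and fell for 1, with a sum of 1968 to 3076, against 865 to 1048 in the controls. Skeletal muscle markers rose for 1 of 12 (Mb), but their sum of 873 to 971 lay above the 44.7 to 356 of the controls. No marker of these lists was at 0 throughout a group, and their part in the day 3 changes was not tested. Lpl, Cd36, Fabp4, Cebpa and Pparg are expressed by macrophages as well as by fat cells.

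At day 6, 1 member rose, Pparg, and 0 fell, beside 4.49% of all genes that rose and 1.43% that fell. Its change was 1.53 (SE 0.33, adjusted p = 0.0356). The call was lost without day 3 control tumour 2 (adjusted p = 0.103), day 6 control tumour 2 (0.0853), day 6 PLX4032 tumour 1 (0.0944) or day 6 PLX4032 tumour 2 (0.484). Without day 6 control tumour 1 the count was 6. The next largest change was Car3 at 1.45 (SE 0.61, adjusted p = 0.187), which did not pass, and the median over the 33 members was 0.26, beside 0.01 over all genes.

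The day 18 tumours were compared directly with those of day 6 and day 3. Against day 6, 27 members rose and 0 fell, beside 1.36% of all genes that rose and 0.145% that fell. Of the 27 members that passed the minimum without the day 18 tumours, 21 rose, with a median of 2.97, beside 0.03 over all genes. Adipoq was higher by 5.45 (SE 0.61, adjusted p = 0.000912) and Cfd by 6.89 (SE 0.92, adjusted p = 0.00318). The 6 that did not pass were Pparg with 1.47 (SE 0.39, adjusted p = 0.114), Cebpa with 0.93 (SE 0.22, adjusted p = 0.0729), and Dgat1, Lpin1, Mest and Angptl4 with changes from 0.31 to 0.82. When these 4 tumours were fitted alone, 16 members rose.

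Against day 3, a comparison chosen after the data were seen, 27 members were higher and 0 lower, beside 19.2% of all genes that were higher and 15.1% that were lower. Without the 6 members that owed their place in the test to day 18, 21 of 27 were higher. Retn differed by 5.39 (SE 0.47, adjusted p = 2.56e-05) and Pck1 by 4.32 (SE 0.24, adjusted p = 6.71e-06). Lpl differed by 0.73 (SE 0.42, adjusted p = 0.197), Cebpa by -0.32 (SE 0.22, adjusted p = 0.274) and Dgat1 by -0.09 (SE 0.20, adjusted p = 0.744), none of which passed.

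At day 27, 3 members fell and 0 rose against the controls, beside 3.09% of all genes that fell and 3.58% that rose. Car3 fell by 2.54 on the log2 scale (SE 0.50, adjusted p = 0.0148), Cd36 fell by 1.65 (SE 0.34, adjusted p = 0.0182) and Pnpla2 fell by 0.49 (SE 0.13, adjusted p = 0.0429). The count was 1 without day 3 control tumour 2, day 27 tumour 1 or day 27 tumour 2, and 8 without day 6 control tumour 2. It was 0 when the day 27 tumours were averaged in pairs, under each of the 3 possible pairings. Cfd changed by -2.32 (SE 0.65, adjusted p = 0.0608) and Sncg by -0.83 (SE 0.23, adjusted p = 0.0623), and neither passed. Mest was the member with the largest positive difference, at 21.8, 12.5, 21.7 and 17.0, against 13.5, 9.36, 6.43 and 6.33 in the controls (0.99, SE 0.27, adjusted p = 0.0528). All 4 day 27 tumours stood below every control for 7 of the 33 members tested, beside 6.43% of all genes. Skeletal muscle markers summed to 12.5 to 34.6 at day 27, against 44.7 to 356 in the controls, and 1 of 12 fell. Car3, Cd36 and Pnpla2 are also muscle genes, and the part of muscle in their falls was not tested.

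Set against day 18, 30 members fell at day 27 and 0 rose, beside 6.86% of all genes that fell and 3.19% that rose. Of the 27 members that passed the minimum without the day 18 tumours, 24 fell, with a median log2 change of -3.18, beside -0.06 over all genes; over the 33 the median was -3.99. Some markers of other cell types fell with them. Fibroblast and adipose progenitor markers fell for 5 of 10 (median -1.85), with a sum of 769 to 882 at day 27, against 1352 to 2042 at day 18. Skeletal muscle markers fell for 4 of 12 (median -3.06), with a sum of 12.5 to 34.6 at day 27, against 49.1 and 2016 at day 18. Macrophage markers fell for 1 of 10 (median -1.48), with a sum of 788 to 1685 at day 27, against 2094 to 3397 at day 18. Endothelial markers fell for 1 of 10 and rose for 1 (median 0.149). Their sum was 151 to 288 at day 27, against 150 to 154 at day 18. No marker of these lists was at 0 throughout either group, and their part in the fall of the fat cell genes was not tested. Cfd fell by 10.12 (SE 0.80, adjusted p = 2.93e-05), Car3 fell by 8.72 (SE 0.61, adjusted p = 1.38e-05) and Adipoq fell by 6.93 (SE 0.52, adjusted p = 2.24e-05). Lpin1, Mest and Angptl4 did not pass, at 0.17, 0.63 and -1.09. Under each pairing of the day 27 tumours at least 28 members fell. Between the 2 control days, limma called 0 members and 0% of all genes, with 886 of the 15841 genes at an unadjusted p under 0.05.

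The 2 day 18 tumours differed from each other in their fat cell genes and in other tissue markers. Of the 34 members, 28 were higher in tumour 2 and 6 in tumour 1, and 9 differed by more than 1.5 times. Those 9, all higher in tumour 2, were Pcx (4.97 times), Thrsp (3.69 times), Slc2a4 (2.67 times), Retn (2.25 times), Gpd1 (2.22 times), Dgat2 (2.20 times), Rbp4 (2.15 times), Plin1 (1.65 times) and Adrb3 (1.60 times), and they come from 5 of the roles. The other synthesis genes stood at 0.922 times (Pck1) to 1.46 times (Lpin1) the level of tumour 1. Plin4 stood at 0.668 times and Cfd at 0.849 times the level of tumour 1. Tumour 2 also held skeletal muscle markers at a summed 2016, against 49.1 in tumour 1 and 44.7 to 356 in the controls, and mammary epithelial markers at 64.8, against 3.52 in tumour 1 and 1.89 to 4.23 in the controls. Krt18, a keratin of simple epithelium, stood at 31.2 in tumour 2 and 0.310 in tumour 1, and the epithelial gene Epcam at 10.9 in tumour 2 and 0.279 in tumour 1. The part of muscle and mammary tissue in the day 18 values was not tested. In a fit without tumour 2, which leaves a single day 18 tumour assumed to vary like the others, 27 members rose, and Agpat2, Cebpa and Dgat1 no longer passed. The members tested in that fit include the 6 that reached the minimum only through the day 18 tumours. The Adipoq change in that fit was 5.52.

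**Figure D4:**
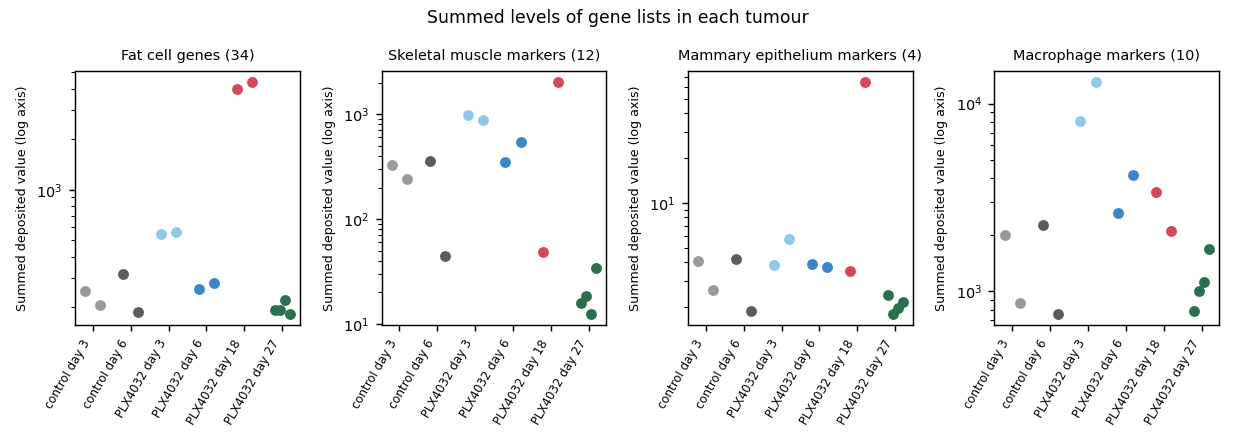
Summed deposited values, on log axes, of the 34 fat cell genes and of skeletal muscle, mammary epithelium and macrophage markers in each tumour by group. Both day 18 tumours were high for fat cell genes (3979 and 4364), whereas only the second was high for muscle (2016, against 49.1 in the first) and mammary markers (64.8, against 3.52).

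Of the other marker lists at day 18, macrophage markers summed to 2094 and 3397, against 760 to 2255 in the controls, and 0 of 10 passed. Fibroblast and adipose progenitor markers rose for 5 of 10, and endothelial markers for 1 of 10, beside 5.42% of all genes that rose and 2.50% that fell. Skeletal muscle markers rose for 0 of 12 and mammary markers for 0 of 3 tested. The keratinocyte and sebaceous lists, of which 4 of 10 and 3 of 6 genes were in the table, changed in 0 of 3 and 0 of 1 tested. Median log2 changes were 1.18 for macrophage, 1.54 for fibroblast and adipose progenitor, 0.54 for endothelial, 0.64 for muscle and 1.67 for mammary markers. They were -0.07 for keratinocyte and -0.13 for sebaceous markers, beside 0.07 over all genes. With groups of 2 tumours, a count of 0 does not show that a list stayed level. The part of the fibroblast and endothelial changes in the fat cell values was not tested. No hepatocyte marker of the list was analysed here.

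Other genes of fat metabolism were read from 4 further lists. Of 13 tested genes of fat storage and hormone response, 6 rose at day 18 and 0 fell, beside 5.42% and 2.50% of all genes, with a median of 0.45, beside 0.07. At day 3, 4 of them rose and 1 fell, beside 24.9% and 20.8% of all genes. G0s2, an inhibitor of Pnpla2, stood at 50.9 and 28.8 at day 18, against 0.695 to 2.87 in the controls, a change of 3.72 (SE 0.34, adjusted p = 9.95e-05). Mgll, which completes lipolysis, rose by 2.73 (SE 0.40, adjusted p = 0.00283), the fatty acid transporter Slc27a1 by 1.20 (SE 0.18, adjusted p = 0.00365) and Gpam, the first enzyme of glycerolipid synthesis, by 0.78 (SE 0.13, adjusted p = 0.00749). Npr3, named after its values were seen, also rose but reached the minimum only through the day 18 tumours. Between day 27 and day 18, 8 of these 13 fell, beside 6.86% of all genes.

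Of 13 tested genes of fatty acid synthesis, 8 fell at day 3 and 0 rose, with a median of -0.55, in a comparison where 20.8% of all genes fell. At day 18, 4 of 13 rose and 0 fell, beside 5.42% and 2.50% of all genes. Scd1, which desaturates fatty acids, was at 19.8 and 13.1 at day 3 and 548 and 756 at day 18, against 32.5 to 108 in the controls, with a day 18 change of 3.28 (SE 0.39, adjusted p = 0.000791). Fatty acid synthase (Fasn) was at 239 and 470 at day 18, against 81.9 to 135 in the controls (1.54, SE 0.27, adjusted p = 0.00757). The malic enzyme Me1 rose by 1.27 (SE 0.18, adjusted p = 0.00204) and the regulator Srebf1 by 0.54 (SE 0.10, adjusted p = 0.0109).

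Of 14 tested regulators of fat cell formation, 5 rose and 1 fell at day 3, with a median of 0.41, beside 24.9% and 20.8% of all genes. At day 18, 2 of the 14 rose and 0 fell, with a median of 0.33, beside 5.42% and 2.50%. Those were Klf15 with 1.95 (SE 0.19, adjusted p = 0.000218) and Ebf1 with 1.59 (SE 0.26, adjusted p = 0.00539). Gata3 at 1.12 (adjusted p = 0.0579) and Zfp423 at 1.02 (adjusted p = 0.0615) did not pass. Of 7 tested brown fat genes, 3 rose and 1 fell at day 3 (median 0.63), and 3 rose and 0 fell at day 18 (median 0.50), beside those shares of all genes. The day 18 rises were Cox8b, a respiratory chain subunit that muscle also makes, by 2.81 (SE 0.50, adjusted p = 0.00851), Ucp3, a carrier of muscle and brown fat, by 1.06 (SE 0.23, adjusted p = 0.021), and Ebf2 by 0.92 (SE 0.16, adjusted p = 0.00832). Klf15, Ucp3 and Ebf2 reached the minimum only through the day 18 tumours. Prdm16, a determinant of brown fat identity, had a change of -0.89 and did not pass (SE 0.25, adjusted p = 0.0513). Ucp1, the heat-producing carrier that defines brown fat, was not analysed here.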

How the data were processed

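RNA of 14 whole tumours was sequenced from TruSeq libraries, per the labels' protocols. Per the submitters' processing notes, the tools were kallisto and sleuth with the build mm10. The sources used here give neither their versions nor their settings. The deposited table holds 1 expression signal value per gene and tumour, made by the authors; its name says TPM, but column sums differ, so the unit is treated as a signal and no count test was run. Depth is unknown, so no counting interval is given. Table columns show the group and not the animal, so tumour numbers only name tumours.

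Values were analysed as log2(value + 1) with limma 3.58.1 in R 4.3.3, with 6 group means, a variance trend and 8 residual degrees of freedom. Genes reaching 1 in at least 2 tumours (15841 of 18481) were tested, 2-sided, with Benjamini-Hochberg adjustment and a threshold of 0.05. The fit was tested on simulated data. Beyond their titles, nothing in the labels says that tumours of a group come from separate animals. The p-values cover the scatter of these tumours alone, which holds both differences between grafts and technical variation.

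The 39 genes, their roles and the other gene lists were chosen with earlier results of these data known. Values per tumour are given for members called at day 18 against controls or between day 27 and day 18; on the other lists, the 4 genes of smallest p at day 18 are named, and outside the lists the 10 largest rises and 5 largest falls at day 18 among genes whose groups did not overlap and that averaged 5 or more on the higher side. Promoters came from RefSeq (GRCm38.p6), the assembly that mm10 names; the coordinates are those of RefSeq. Alternatives covered pseudocounts, filters, rescaling, sample weights, control choice, pairing of the day 27 tumours and leaving out each tumour.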

Additional observations from a re-analysis of the deposited data

Results flagged for a closer look

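In groups of 4 tumours, 66 pairs of a fat cell gene and a group were examined for a single tumour far from the other 3. Of these pairs, 8 stood out. For independent, normally spread values chance alone flags about 1 in 20. That rate need not hold here, because the day 27 tumours came from 2 mice and some values were listed at 0. The 8 therefore cannot be read as an excess. At day 27, tumour 4 was the highest for Cfd (1.38), Cidec (0.0297), Pcx (0.794) and Thrsp (0.629), and tumour 1 for Rbp4 (0.129) and Cyp2e1 (0.152). Among the controls, day 6 tumour 2 was the lowest for Car3 (0.381) and day 6 tumour 1 for Nnat (1.13). Apart from Cfd and Nnat these values lie below 1, and all 8 are lower than any day 18 value of the same gene. The 84 differences between days of treatment that passed the test of the difference itself follow, by the role of the gene. Rbp4, Plin1, Pck1, Pcx, Thrsp and Cyp2e1 among them reached the minimum only through the day 18 tumours.

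Between day 18 and day 6 the difference was called for 27 members, with positive values where day 18 was higher (log2, limma). Among the secreted proteins the log2 difference was 5.45 for Adipoq, 6.89 for Cfd, 3.63 for Rbp4 and 5.61 for Retn. The droplet coat genes differed by 5.25 for Cidec, 5.09 for Plin1 and 4.84 for Plin4. It was 2.79 for Adrb3, 2.97 for Aoc3, 2.33 for Lipe and 1.90 for Pnpla2 in the lipolysis genes. For the uptake genes the values were 3.48 for Cd36, 5.38 for Fabp4, 3.62 for Lpl and 2.16 for Slc2a4. Among the synthesis genes the log2 difference was 1.44 for Acsl1, 1.05 for Agpat2, 3.27 for Dgat2, 4.19 for Gpd1, 4.54 for Pck1, 3.59 for Pcx and 4.74 for Thrsp. The regulators differed by 2.62 for Mlxipl. It was 4.73 for Car3, 5.12 for Cyp2e1, 3.65 for Nnat and 3.37 for Sncg in the other fat cell genes.

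Between day 27 and day 18 it was called for 30 members, with negative values where day 27 was lower. Among the secreted proteins the log2 difference was -6.93 for Adipoq, -10.12 for Cfd, -3.99 for Rbp4 and -6.55 for Retn. The droplet coat genes differed by -6.43 for Cidec, -5.76 for Plin1 and -5.82 for Plin4. It was -3.60 for Adrb3, -2.99 for Aoc3, -3.06 for Lipe and -2.32 for Pnpla2 in the lipolysis genes. For the uptake genes the values were -5.17 for Cd36, -5.44 for Fabp4, -5.33 for Lpl and -2.80 for Slc2a4. Among the synthesis genes the log2 difference was -2.19 for Acsl1, -1.11 for Agpat2, -0.68 for Dgat1, -4.46 for Dgat2, -4.58 for Gpd1, -4.55 for Pck1, -3.82 for Pcx and -4.96 for Thrsp. The regulators differed by -0.86 for Cebpa, -3.14 for Mlxipl and -2.78 for Pparg. It was -8.72 for Car3, -5.50 for Cyp2e1, -3.18 for Nnat and -4.12 for Sncg in the other fat cell genes.

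Between day 18 and day 3, a comparison added after the data were seen, it was called for 27 members. Among the secreted proteins the log2 difference was 4.93 for Adipoq, 5.90 for Cfd, 2.97 for Rbp4 and 5.39 for Retn. The droplet coat genes differed by 4.79 for Cidec, 4.37 for Plin1 and 4.56 for Plin4. It was 1.84 for Adrb3, 1.59 for Aoc3, 1.76 for Lipe and 1.08 for Pnpla2 in the lipolysis genes. For the uptake genes the values were 1.78 for Cd36, 3.47 for Fabp4 and 1.62 for Slc2a4. Among the synthesis genes the log2 difference was 1.19 for Acsl1, 1.08 for Agpat2, 2.66 for Dgat2, 3.56 for Gpd1, 4.32 for Pck1, 3.76 for Pcx and 4.37 for Thrsp. The regulators differed by 2.23 for Mlxipl and 1.20 for Pparg. It was 3.58 for Car3, 4.64 for Cyp2e1, 3.79 for Nnat and 2.49 for Sncg in the other fat cell genes.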

How the results depend on the processing

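The rise of the fat cell genes at day 18 kept its direction under every alternative run, with 25 to 31 members called, and 27 to 31 when 1 tumour was left out; a group left with 1 tumour was assumed to vary like the others. The falls between day 27 and day 18 numbered 28 to 31 (28 to 30 leaving out a tumour), the rises at day 3 13 to 19 (14 to 22), and those between day 18 and day 3 24 to 28 (24 to 26). No called member reversed in any of them. The members tested in these fits include Rbp4, Plin1, Pck1, Pcx, Thrsp and Cyp2e1. These reached the minimum only through the day 18 tumours and so had to differ, and no range is given without them. The rises between day 18 and day 6 numbered 16 with the compared groups alone, and 22 to 27 leaving out a tumour. At day 6, 1 member rose, but 2 with columns rescaled to the same sum without the members, and 0 with the compared groups alone, without the day 27 tumours, with either control day alone or with any pairing of the day 27 tumours; leaving out a tumour gave 0 to 6. At day 27, 3 fell, but 6 with a pseudocount of 0.1, 1 with the compared groups or the day 3 controls alone, and 0 with the day 6 controls alone or any pairing; leaving out a tumour gave 1 to 8. Rises there numbered 0, but 1 with a pseudocount of 5, a filter at 5, the rescaling or the compared groups alone, and 0 to 1 leaving out a tumour. Leaving out a tumour also gave 0 to 1 rise and 0 to 1 fall between the control days and 0 to 1 fall between day 18 and day 3. The cause was not tested.

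Over all genes, 858 rose and 396 fell at day 18; with the compared groups alone 139 rose and 39 fell, and with quantile normalisation 694 rose and 850 fell. At day 3, 3947 rose and 3302 fell, but 3143 and 4932 with quantile normalisation, which moved the median of all genes to -0.15. At day 27, 567 rose and 489 fell, but 88 and 74 under 1 pairing. Between day 27 and day 18, 505 rose and 1087 fell, but 1212 and 840 with quantile normalisation. Leaving out 1 tumour moved these counts too. At day 18 it gave 320 rises (without day 18 tumour 2) to 1549 (without day 6 control tumour 1) and 46 falls (without day 18 tumour 1) to 671 (without day 6 control tumour 1). At day 6 it gave 0 rises and 0 falls without day 3 control tumour 2, and 1517 and 628 without day 6 control tumour 1, against 711 and 226 with all tumours. Rises between day 18 and day 6 numbered 88 to 161 (216 with all tumours) and falls 5 to 139 (23). Between day 27 and day 18, 423 to 1371 fell and 55 to 548 rose, at day 27 216 to 552 fell and 260 to 588 rose, at day 3 2351 to 4014 rose and 1994 to 3351 fell, and between day 18 and day 3 2014 to 2292 were higher and 984 to 1603 lower. No paired analysis was possible because the columns carry no animal numbers. Depth is unknown, and groups of 2 tumours limit the precision.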

Other observations

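Among genes outside the fat cell lists, the largest rises at day 18 included secreted and acute-phase proteins. Haptoglobin (Hp), a haemoglobin carrier made by liver and fat, stood at 1044 and 987 at day 18, against 2.04 to 54.3 in the controls, a change of 6.02 (SE 0.83, adjusted p = 0.00197, limma). Complement C3 stood at 355 and 203 at day 18, against 3.02 to 39.7 in the controls, a change of 3.91 (SE 0.61, adjusted p = 0.00405), but at 363 and 628 at day 3. Lrg1 rose by 3.90 (SE 0.50, adjusted p = 0.0012), Cxcl14, a chemokine, by 4.11 (SE 0.60, adjusted p = 0.00283), Apoc1, an apolipoprotein, by 5.42 (SE 0.76, adjusted p = 0.00219) and Wfdc21 by 5.56 (SE 0.54, adjusted p = 0.000172). Fos, an immediate early factor, stood at 150.0 and 68.2 at day 18, against 2.97 to 8.91 in the controls (4.15, SE 0.40, adjusted p = 0.000159), and at 37.7 and 70.7 at day 3. Clec3b stood at 56.6 and 39.7 at day 18, against 0.527 to 3.06 in the controls (4.33, SE 0.48, adjusted p = 0.000486), and its mean was higher at day 3 (58.6, from 32.95 and 84.2) than at day 18 (48.1). Mup18 at 5.56 (SE 0.37, adjusted p = 1.31e-05) and Mup11 at 5.17 (SE 0.46, adjusted p = 8.69e-05) belong to a family of near-identical genes, so the split between them is uncertain.

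The largest falls at day 18 were in a granzyme gene group, proteases of cytotoxic lymphocytes whose members are close copies, so that single values are uncertain. Gzmf stood at 0.0644 and 0.156 at day 18, against 69.7 to 141 in the controls, and changed by -6.51 (SE 0.45, limma adjusted p = 1.71e-05). It was at 152 and 614 at day 3, 45.5 and 61.2 at day 6 and 0.455 to 2.03 at day 27. Gzmd changed by -5.97 (SE 0.51, adjusted p = 6.94e-05) and Gzme by -4.86 (SE 0.54, adjusted p = 0.000507), while Gzmg was listed at 0 in both day 18 tumours, against 85.1 to 137 in the controls. Neuritin (Nrn1) was at 5.64 and 5.63 at day 18, against 28.9 to 131 in the controls, a change of -3.49 (SE 0.49, limma adjusted p = 0.00219). It also lay below all controls at day 3 (13.9 and 12.9), day 6 (13.3 and 10.8) and day 27 (10.8 to 26.9).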
